A study of Mus musculus with 3 samples.

Results

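The 41 genes described here encode Toll-like receptors (TLRs), other innate immune sensors and the NF-kappaB proteins they signal through. They were taken by symbol from the 21881 gene symbols listed, with no filter on level, but earlier results of these data were known when they were chosen. All Tlr symbols with a number and Irak1 to Irak4 were included, with a named set of co-receptors, adaptors, NOD-like and nucleic acid sensors, IkappaB kinase subunits, NF-kappaB subunits and inhibitors. All 41 were listed with a value above 0 in each tumour. The tumours were 3 snap-frozen transplants of NDL(UCD), a mouse mammary cancer line of an ErbB2 model, each from a different female FVB/NJ mouse. Its cells were grown in culture and injected on both sides into the mammary fat pads of these syngeneic hosts at an age of 6 to 8 weeks, and the growths were collected when 5 to 10 mm wide. In the NDL model an activated Neu (Erbb2) transgene is driven in mammary epithelium by the promoter of a mouse mammary tumour virus, as is known of it. Total RNA was depleted of ribosomal RNA and made into directional libraries from 50 ng. The 3 tumours form 1 group of 1 line with no normal, untreated or second tumour group, so genes were compared with a fixed level, with each other within a tumour and between the tumours.

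TLRs are membrane receptors for microbial and damage-associated molecules. Those on the cell surface sense lipids and proteins, and those in endosomes sense nucleic acids. Most pass the signal through the adaptor MyD88 to IRAK kinases, and TLR3 and part of TLR4 signalling pass it through TRIF. The IkappaB kinase complex then marks IkappaB proteins for destruction, which frees NF-kappaB dimers to enter the nucleus. Several IkappaB genes and Tnfaip3 are themselves transcribed in response to NF-kappaB, which closes a negative feedback loop. In mammary tumours these genes can be transcribed by cancer cells, macrophages and other stromal cells alike.

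FPKM counts fragments per kilobase of transcript and per 1e+06 fragments of the library, so that levels can be set side by side between genes. Tumours 1, 2 and 3 held 11.6, 12.3 and 13.3 M (1e+06) fragments as implied by the width of the deposited intervals. All 6 luminal epithelial markers were above 1 FPKM and none of them differed by a ratio of at least 2 between tumours, with Erbb2 at 199.9, 195 and 189.7 FPKM as deposited. With the GC and length trends removed Erbb2 was at 259, 184 and 156 FPKM, so it was level in the deposited values only. The 12 macrophage markers were also all above 1 FPKM, and their sum was 277, 509 and 989 FPKM in tumours 1, 2 and 3. The tumours also differed by GC content of the transcripts: among all genes averaging 1 FPKM or more, the fifth with the lowest GC content had a median log2 deviation of 0.58 in tumour 1 and -0.52 in tumour 3, and the fifth with the highest had -0.46 in tumour 1 and 0.33 in tumour 3. Each difference between tumours below was therefore also computed with GC and length trends removed. In bulk tumour RNA, fewer cells of a type and less RNA per cell cannot be told apart.

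Most of the pathway was transcribed at a low to moderate level. A level was called above or below 1 FPKM, a conventional mark rather than a biological boundary, when limma on log2((FPKM + 0.1)/1.1) gave a Benjamini-Hochberg adjusted p under 0.05 over all symbols tested. Of 39 members that could be tested, 26 were above 1 FPKM, a share of 66.7% where 54.2% of all 18028 symbols tested were above. A further 5 were below (Tlr5, Tlr9, Tlr11, Ticam2 and Nod2), a share of 12.8% against 32.5% of all symbols. The remaining 8 were not separated from 1 FPKM. These were Tlr1, Tlr7, Tlr8, Tlr12, Tlr13, Irak3, Nlrp3 and Relb. With the GC and length trends removed 27 were above (69.2%, beside 56.4% of all symbols) and 6 below (15.4%, beside 32.1%). Without tumour 2 the number above fell to 18, because Tlr6, Ly96, Ticam1, Nod1, Pycard, Rel, Nfkbib and Tnfaip3 were no longer called. It was 26 without tumour 1 and 22 without tumour 3. The shares of all symbols above 1 FPKM with only 2 tumours are not given here. Irak1 and Chuk were not tested because their value in tumour 2 carries a failed status in the authors' file. The median of the members' mean levels was 2.71 FPKM, against 2.44 FPKM over all symbols tested.

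**Figure D1:**
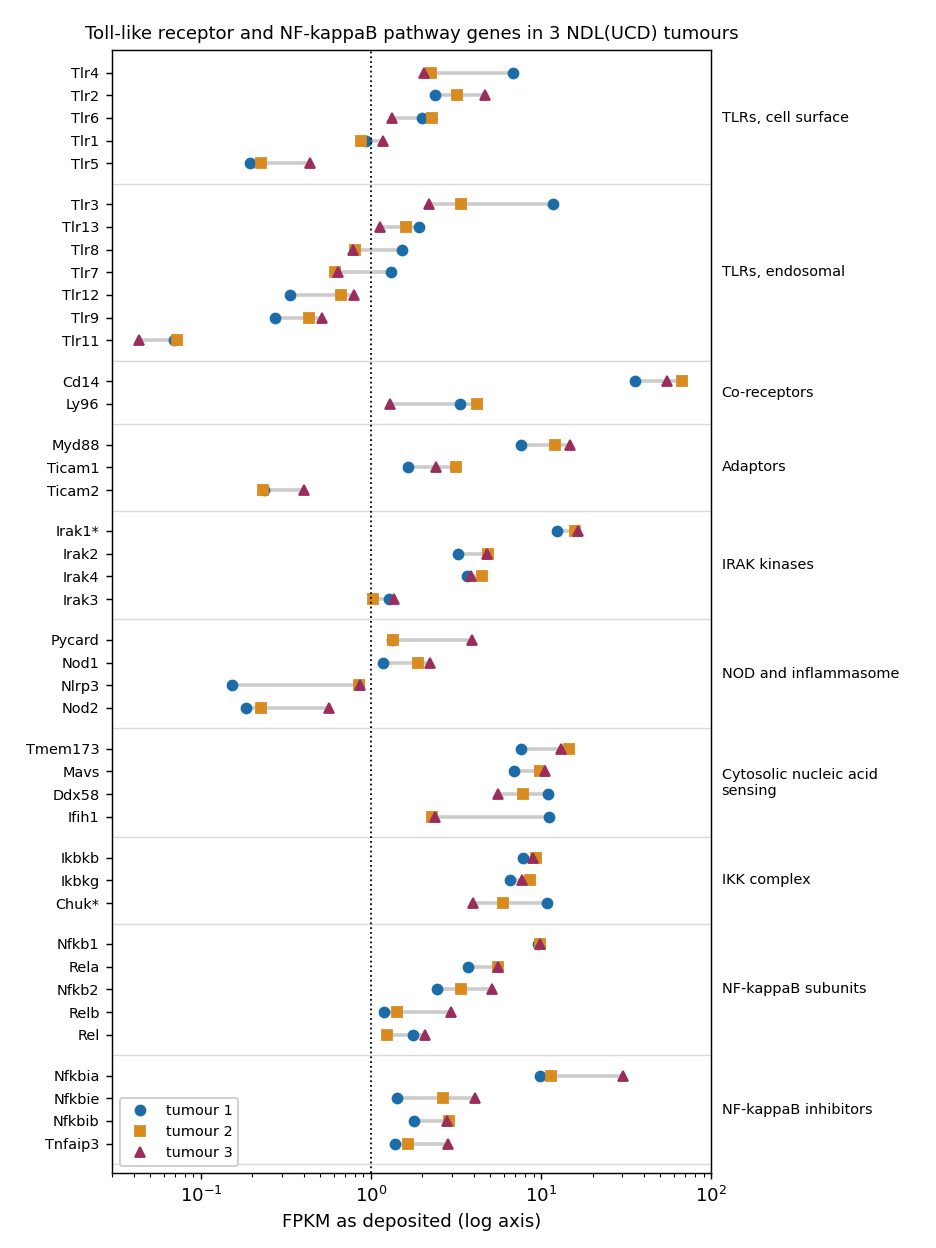
FPKM of the 41 genes in each of the 3 NDL(UCD) tumours on a log axis, grouped by role and ordered by mean within each group, with a dotted line at 1 FPKM; the grey bar joins the lowest and the highest tumour, and an asterisk marks a gene whose tumour 2 value has a failed status. Cd14 lies highest, between 35.5 and 67.1 FPKM, while Tlr5, Tlr9, Tlr11, Ticam2 and Nod2 lie left of the line in all 3 tumours.

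Among the surface receptors Tlr2, Tlr4 and Tlr6 were above 1 FPKM, Tlr1 was at that level and Tlr5 was below it. Tlr2, the receptor for bacterial lipoproteins, had 2.37, 3.18 and 4.67 FPKM in tumours 1, 2 and 3 (limma adjusted p = 0.00048; mm9 chromosome 3, bases 83640194 to 83645530). It was highest in tumour 3 and lowest in tumour 1, and its ratio of highest to lowest, 1.97, lay just under the ratio of 2 required below for a difference. Its dimer partner Tlr6 had 1.98, 2.27 and 1.32 FPKM (limma adjusted p = 0.023). Tlr1, the other partner of Tlr2, had 0.934, 0.866 and 1.18 FPKM. Tlr2 and Tlr6 were both higher in tumour 2 than in tumour 1, but tumour 3 had the highest Tlr2 and the lowest Tlr6. Tlr1 and Tlr6 are near-identical in part, with 13.6% of the 50-base stretches of Tlr1 transcripts also found in Tlr6 and 12.3% of those of Tlr6 in Tlr1, so the split of fragments between them is uncertain.

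Tlr4, the receptor for bacterial lipopolysaccharide, had 6.82, 2.26 and 2.04 FPKM in tumours 1, 2 and 3 (limma adjusted p = 0.0036; mm9 chromosome 4, bases 66488845 to 66503830). Tumour 1 stood alone, and tumours 2 and 3 were close to each other. With the GC and length trends removed the values were 3.82, 2.56 and 3.20 FPKM, a ratio of 1.49 in place of 3.33. Tlr5, the flagellin receptor, was at 0.193, 0.224 and 0.434 FPKM, below 1 FPKM in each tumour (limma adjusted p = 0.0011). It rested on 17, 19 and 41 implied fragments. On the log2(FPKM + 0.1) scale Tlr2 exceeded Tlr1 by 1.64 ± 0.34 and Tlr6 by 0.82 ± 0.81 (SD over 3 tumours), in the same direction in each tumour. Tlr2 and Tlr4 were not ordered, since their log2 difference of 0.05 ± 1.37 was negative in tumour 1 and positive in the other tumours. Tlr4 exceeded Tlr5 by 3.14 ± 1.30 log2 units in all 3 tumours.

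The endosomal receptors were led by Tlr3, and 6 of the 7 had a mean under 2 FPKM. Tlr3, which binds double-stranded RNA, had 11.7, 3.39 and 2.18 FPKM in tumours 1, 2 and 3 (limma adjusted p = 0.0026; mm9 chromosome 8, bases 46481019 to 46495893). It was more than 3 times as high in tumour 1 as in either other tumour as deposited, and with the trends removed it was at 7.82, 3.57 and 3.14 FPKM. Tlr13, a mouse receptor for bacterial ribosomal RNA, had 1.91, 1.60 and 1.13 FPKM and passed the level test only with the trends removed. Tlr8 had 1.52, 0.80 and 0.783 FPKM. Tlr7, which senses single-stranded RNA, had 1.31, 0.608 and 0.635 FPKM. Both of these X-linked neighbours were above 1 FPKM in tumour 1 only as deposited. That order turned with the trends removed, which gave 0.76, 0.674 and 0.997 FPKM for Tlr7 and 1.06, 0.824 and 1.1 FPKM for Tlr8, both highest in tumour 3. Neither was separated from 1 FPKM by limma as deposited (adjusted p = 0.41 for Tlr7 and 0.96 for Tlr8).

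The last of the endosomal group were low in every tumour. Tlr12, which with Tlr11 recognises a protozoan profilin in mice, had 0.332, 0.665 and 0.789 FPKM (limma adjusted p = 0.057). Tlr9, the receptor for unmethylated CpG DNA, had 0.270, 0.432 and 0.514 FPKM (limma adjusted p = 0.0056). Tlr11 had 0.0689, 0.0716 and 0.0428 FPKM, the lowest of the 41 genes, from 6, 6 and 4 implied fragments. Its level was below 1 FPKM by limma (adjusted p = 1.1e-06). Tlr3 exceeded Tlr7 by 2.33 ± 0.72 log2 units and Tlr13 exceeded Tlr9 by 1.71 ± 0.72, both in all 3 tumours. Tlr7 exceeded Tlr9 by 0.87 ± 0.93 log2 units, an SD larger than the mean difference.

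The 12 TLR genes together reached 29.4, 16.4 and 15.7 FPKM in tumours 1, 2 and 3, and their make-up shifted. Tlr3 supplied 39.9%, 20.7% and 13.9% of the sum, so that its share was largest in tumour 1. Tlr2 supplied 8.05%, 19.4% and 29.7%, the reverse order. Tlr4 made up 23.2%, 13.8% and 13.0%. With the trends removed the summed level was 20.8, 16.7 and 19.4 FPKM, so the excess of tumour 1 as deposited was mostly gone, while the shares of Tlr3 (37.7%, 21.3% and 16.2%) and Tlr2 (12.4%, 18.0% and 23.7%) kept their opposite orders. Shares of 1 sum depend on each other, and with 1 library per tumour they were not tested.

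**Figure D2:**
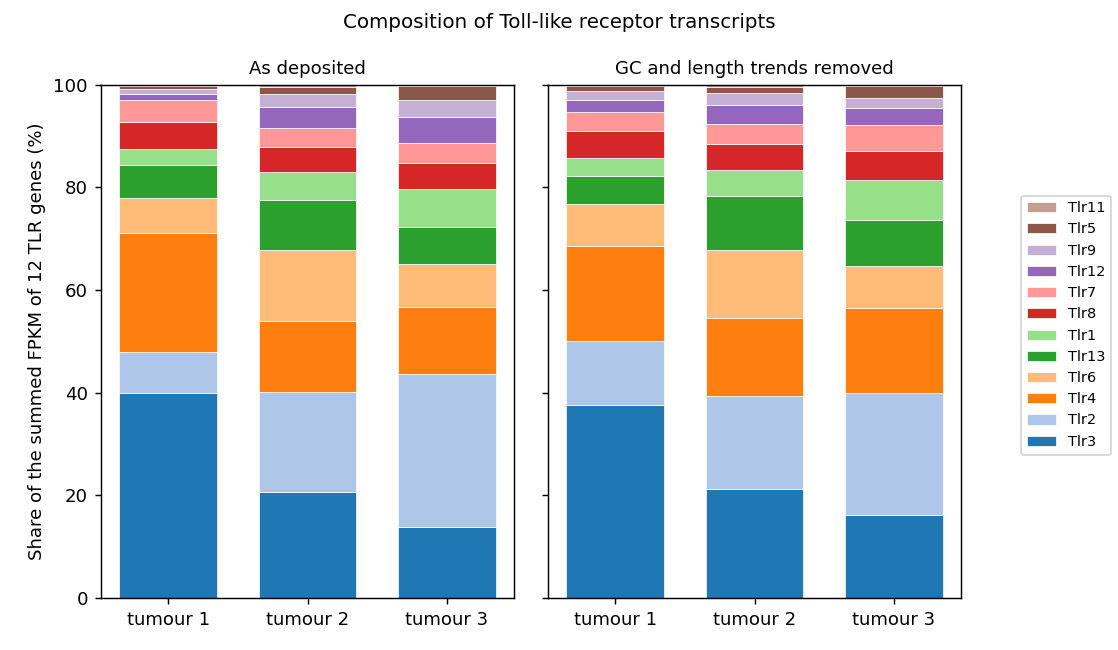
Stacked bars of the share of each of the 12 TLR genes in their summed FPKM (%), for tumours 1 to 3, as deposited on the left and with GC and length trends removed on the right. The Tlr3 share at the base is 39.9% in tumour 1 and 13.9% in tumour 3 as deposited, and the Tlr2 share above it is 8.05% in tumour 1 and 29.7% in tumour 3.

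The lipopolysaccharide co-receptors lay far apart. Cd14, which hands lipopolysaccharide to TLR4 and is a marker of monocytes and macrophages, had 35.5, 67.1 and 54.5 FPKM in tumours 1, 2 and 3 (limma adjusted p = 1.4e-07; mm9 chromosome 18, bases 36884721 to 36886308). Its mean of 52.4 ± 15.9 FPKM was the highest of the 41 genes and higher than that of 95.8% of the 18028 symbols tested for level. Ly96, which encodes the TLR4 partner MD-2, had 3.34, 4.19 and 1.29 FPKM (limma adjusted p = 0.0067). It was lowest in tumour 3, and this short transcript rested on only 34, 38 and 14 implied fragments, the fewest of the members above 1 FPKM. Cd14 exceeded Ly96 by 4.21 ± 0.99 log2 units, 18.5-fold, and Tlr4 by 3.96 ± 1.38, 15.5-fold, in all 3 tumours. Ly96 and Tlr4 were not ordered (-0.26 ± 0.99 log2 units, positive in tumour 2 alone).

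Of the adaptors, Myd88 and Ticam1 were above 1 FPKM and Ticam2 below. Myd88, the adaptor shared by most TLRs, had 7.56, 12.1 and 14.8 FPKM in tumours 1, 2 and 3 (limma adjusted p = 2.7e-06; mm9 chromosome 9, bases 119245106 to 119249158). Its order, lowest in tumour 1 and highest in tumour 3, was the order of Tlr2, but its ratio of 1.96 fell to 1.23 with the trends removed. Ticam1, which encodes TRIF, had 1.66, 3.13 and 2.39 FPKM (limma adjusted p = 0.0042). Ticam2, which encodes the bridging adaptor TRAM, had 0.233, 0.231 and 0.404 FPKM and was below 1 FPKM (limma adjusted p = 0.001). Myd88 exceeded Ticam1 by 2.21 ± 0.34 log2 units, 4.62-fold, and Ticam1 exceeded Ticam2 by 2.66 ± 0.54, 6.34-fold. Both differences had the same sign in all 3 tumours. Of the 50-base stretches of Ticam2 transcripts, 13.7% are shared with its neighbour Tmed7, so its low level may hold some uncertainty of assignment.

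The IRAK family was led by Irak1. Irak1, a kinase recruited by MyD88, had 12.4 and 16.3 FPKM in tumours 1 and 3, with 15.7 FPKM listed under a failed status in tumour 2. Irak2, a family member that sustains the signal, had 3.25, 4.84 and 4.78 FPKM in tumours 1, 2 and 3 (limma adjusted p = 7.4e-05). Irak4, the kinase that starts the cascade, had 3.64, 4.5 and 3.87 FPKM (limma adjusted p = 7.2e-05). These genes varied little between tumours, and none had a ratio of 1.5 or more. Irak3, known in macrophages as the inhibitor IRAK-M, had 1.28, 1.02 and 1.35 FPKM and was not separated from 1 FPKM. Irak1 made up 60.2%, 60.3% and 62.0% of the summed level of the family. In the 2 tumours with a usable value it exceeded Irak4 by 1.89 ± 0.22 and Irak2 by 1.82 ± 0.10 log2 units, and Irak2 exceeded Irak3 by 1.72 ± 0.43 over all 3 tumours.

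Among the NOD-like receptors and the inflammasome, Nod1 and Pycard were above 1 FPKM. Nod1, a cytosolic sensor of bacterial peptidoglycan, had 1.17, 1.88 and 2.22 FPKM in tumours 1, 2 and 3 (limma adjusted p = 0.042). Nod2, the related sensor of muramyl dipeptide, had 0.185, 0.224 and 0.567 FPKM and was below 1 FPKM (limma adjusted p = 0.0027). Nod1 exceeded Nod2 by 2.19 ± 0.41 log2 units, 4.56-fold, in each tumour. Nlrp3, the sensor of the inflammasome named after it, had 0.151, 0.851 and 0.855 FPKM. Tumour 1 was lower than the others by a ratio of 5.65, the largest among the 41 genes, but the mean was too low for the test between tumours and the value in tumour 1 rested on 17 implied fragments. Pycard, which encodes the inflammasome adaptor ASC, had 1.32, 1.33 and 3.92 FPKM (limma adjusted p = 0.044; mm9 chromosome 7, bases 135134887 to 135137381). Here tumours 1 and 2 were alike and tumour 3 stood alone, and with the trends removed the values were 1.5, 1.25 and 3.71 FPKM. The level call of Pycard was lost without tumour 3, at 0.37 log2 units above 1 FPKM.

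All 4 genes of cytosolic nucleic acid sensing were above 1 FPKM, but the 2 RNA helicases and the 2 downstream adaptors were ordered differently across tumours. Ifih1, which encodes the helicase MDA5, a sensor of long double-stranded RNA, had 11.1, 2.26 and 2.37 FPKM in tumours 1, 2 and 3 (limma adjusted p = 0.0049; mm9 chromosome 2, bases 62433850 to 62484312). Only tumour 1 was high, as for Tlr3, and the values with the trends removed were 8.37, 2.29 and 3.19 FPKM. Ddx58, which encodes RIG-I, had 11, 7.83 and 5.54 FPKM (limma adjusted p = 8.2e-06). Ddx58 was also highest in tumour 1, though as deposited its ratio of 1.98 missed the ratio required for a call. Its ratio passed that mark under each of the 3 other scalings, at 2.26 to 2.55. With the trends removed it was 1.43 (9.48, 7.68 and 6.64 FPKM). Mavs, the mitochondrial adaptor of both helicases, had 6.90, 9.78 and 10.5 FPKM (limma adjusted p = 3e-06). Tmem173, which encodes the DNA-sensing adaptor STING, had 7.62, 14.5 and 13.0 FPKM (limma adjusted p = 2.5e-06). Both adaptors were lowest in tumour 1 as deposited. With the trends removed Mavs was level, at 8.82, 9.11 and 8.85 FPKM. Tmem173 exceeded Mavs by 0.34 ± 0.21 log2 units in every tumour, whereas Ddx58 and Ifih1 were not ordered as deposited (0.97 ± 0.90, with tumour 1 at -0.02).

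The 3 subunits of the IkappaB kinase complex were of similar level. Ikbkb, the catalytic subunit of the canonical pathway, had 7.82, 9.33 and 8.88 FPKM in tumours 1, 2 and 3 (limma adjusted p = 2.2e-06). Ikbkg, the regulatory subunit NEMO, had 6.54, 8.63 and 7.67 FPKM (limma adjusted p = 4e-06). Chuk, which encodes the kinase IKK-alpha, had 10.8 and 3.99 FPKM in tumours 1 and 3, and 5.92 FPKM under a failed status in tumour 2. Neither Ikbkb nor Ikbkg differed by a ratio of 1.5 between tumours, while Chuk was 2.71 times as high in tumour 1 as in tumour 3, or 1.67 times with the trends removed, and was not tested. Over the 2 tumours with a usable value Ikbkg and Chuk were not ordered as deposited (0.10 ± 1.16 log2 units), nor were Chuk and Ikbkb (-0.34 ± 1.13). The locus of Ikbkg overlaps that of G6pdx by 19676 bp on mm9. G6pdx, a pentose phosphate enzyme gene, was at 14.4, 29.9 and 23.6 FPKM, and since no source used here gives the strand setting of the counting, reads of the overlap cannot be assigned with certainty.

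Of the NF-kappaB subunits, Nfkb1, Nfkb2, Rel and Rela were above 1 FPKM and Relb was not separated from it. Nfkb1, the precursor of p50, had 9.57, 9.77 and 9.83 FPKM in tumours 1, 2 and 3 (limma adjusted p = 1.4e-06; mm9 chromosome 3, bases 135247619 to 135354511). The tumours were level as deposited, with Cochran's Q giving an adjusted p of 0.8, but removal of the trends gave 12, 9.10 and 8.45 FPKM, and the equality holds for the deposited values only. Rela, the transactivating p65 subunit, had 3.70, 5.54 and 5.59 FPKM (limma adjusted p = 3.8e-05). Nfkb2, the p100 precursor of the non-canonical pathway, had 2.43, 3.38 and 5.10 FPKM (limma adjusted p = 0.0004; mm9 chromosome 19, bases 46379227 to 46386580). Relb, the usual partner of p52, had 1.19, 1.41 and 2.95 FPKM (limma adjusted p = 0.058; mm9 chromosome 7, bases 20191571 to 20214787). Nfkb2 and Relb, the subunits of the non-canonical dimer, were both highest in tumour 3. Rel, a subunit prominent in lymphoid and myeloid cells, had 1.75, 1.25 and 2.06 FPKM (limma adjusted p = 0.044). Its level call was lost without any 1 of the 3 tumours, and its values with the trends removed were 1.08, 1.38 and 2.99 FPKM.

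Nfkb1 supplied 51.3%, 45.8% and 38.5% of the summed level of the 5 subunits in tumours 1, 2 and 3. Nfkb2 supplied 13.0%, 15.8% and 20.0%, and Relb 6.39%, 6.62% and 11.6%. The share of Nfkb1 was smallest in tumour 3, where those of Nfkb2 and Relb were largest, and this order was the same with the trends removed (51.7%, 45.7% and 37.9% for Nfkb1). The sums themselves were 18.6, 21.4 and 25.5 FPKM as deposited, and their order changed with the trends removed, to 23.2, 19.9 and 22.3 FPKM. Within tumours Nfkb1 exceeded Nfkb2 by 1.46 ± 0.50 log2 units. Rela exceeded Rel by 1.5 ± 0.52 and Relb by 1.45 ± 0.51, each in all 3 tumours.

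All 4 inhibitors of NF-kappaB were above 1 FPKM, and 3 of them were highest in tumour 3. Nfkbia, which encodes IkappaB-alpha, the fast feedback inhibitor, had 9.87, 11.4 and 30.3 FPKM in tumours 1, 2 and 3 (limma adjusted p = 1e-05; mm9 chromosome 12, bases 56590396 to 56593634). Tumours 1 and 2 were close and tumour 3 stood well above them, also with the trends removed (13.4, 10.6 and 24.2 FPKM). Nfkbie, which encodes IkappaB-epsilon, had 1.41, 2.63 and 4.09 FPKM (limma adjusted p = 0.0061; mm9 chromosome 17, bases 45692665 to 45700117). Tnfaip3, which encodes the ubiquitin-editing enzyme A20, had 1.37, 1.64 and 2.84 FPKM (limma adjusted p = 0.024; mm9 chromosome 10, bases 18720717 to 18735216). Both had their lowest value in tumour 1. Nfkbib, which encodes IkappaB-beta, had 1.79, 2.86 and 2.78 FPKM, with tumours 2 and 3 alike (limma adjusted p = 0.0025). Nfkbia made up 68.3%, 61.6% and 75.7% of the summed level of these 4 genes. It exceeded Nfkbib by 2.59 ± 0.74, Nfkbie by 2.56 ± 0.42 and Tnfaip3 by 2.95 ± 0.36 log2 units, in all 3 tumours.

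**Figure D3:**
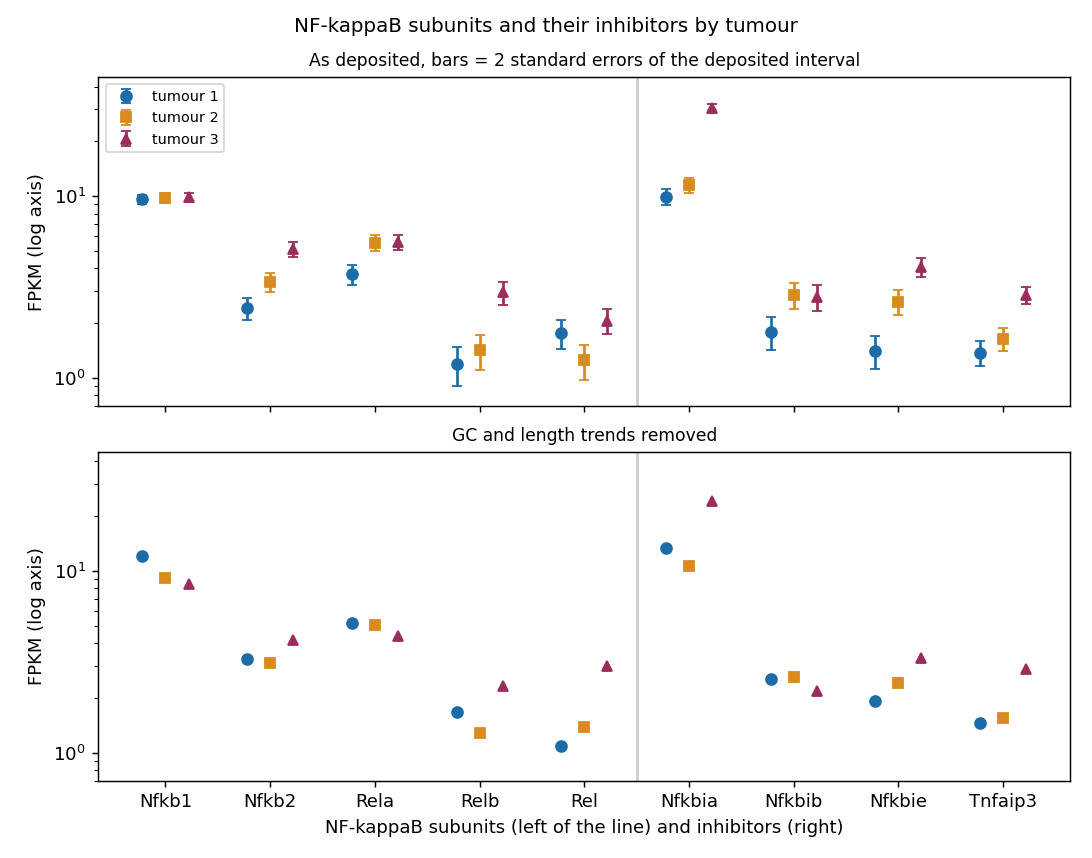
FPKM on a log axis of the 5 NF-kappaB subunits and the 4 inhibitors in each tumour, as deposited with bars of 2 standard errors from the deposited interval above, and with GC and length trends removed below. Nfkb1 is level near 9.57 to 9.83 FPKM as deposited, while Nfkbia stands at 30.3 FPKM in tumour 3, above the 9.87 and 11.4 FPKM of tumours 1 and 2.

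In 22 of the 27 gene pairs compared within tumours the difference had the same sign in every tumour measured. With 3 tumours the exact two-sided sign-flip permutation test cannot give a p below 0.25, and below 0.5 with 2 tumours, so no pair could pass a threshold. The pairs without a fixed order as deposited were Tlr2 and Tlr4, Ly96 and Tlr4, Ddx58 and Ifih1, Ikbkg and Chuk, and Chuk and Ikbkb. Each of these pairs holds a gene that was highest in tumour 1 as deposited. With the trends removed Ddx58 exceeded Ifih1 in all 3 tumours (0.97 ± 0.76 log2 units). Chuk was then below Ikbkb in the 2 tumours with a usable value (-0.38 ± 0.31).

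The tumours were then compared gene by gene with Cochran's Q on the deposited standard errors, which asks whether 3 values differ by more than the error of each, with a ratio of highest to lowest of at least 2 required for a call. Of the 30 members that averaged 1 FPKM or more and had a usable value in each tumour, 10 were called, a share of 33.3% beside 32.5% of all 11058 symbols tested. The share of the members was near that of all symbols. Only 1 library was made of each tumour, so these differences have no replicate check.

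Tlr3, Ifih1 and Tlr4 were called with their highest value in tumour 1, 3 members or 10% of those tested, where 15.7% of all symbols were. Their ratios were 5.38, 4.92 and 3.33, with adjusted p from Cochran's Q of 1.8e-174, 1.6e-214 and 6.3e-65. Ly96 was called with its highest value in tumour 2 (ratio 3.25, adjusted p = 6.7e-05), a pattern shown by 3.64% of all symbols. Pycard, Nfkb2, Relb, Nfkbia, Nfkbie and Tnfaip3 were called with their highest value in tumour 3, 20% of the members tested, where 13.2% of all symbols were. Nfkbia had the largest ratio of these, 3.07 (adjusted p = 2e-102), followed by Pycard at 2.97 (adjusted p = 1.5e-19) and Nfkbie at 2.90 (adjusted p = 9.6e-21). Relb followed at 2.48, Nfkb2 at 2.10 and Tnfaip3 at 2.07 (adjusted p = 4.7e-11, 1.1e-18 and 3e-15). Below the required ratio lay Ddx58 at 1.98, Tlr2 at 1.97, Myd88 at 1.96 and Tlr8 at 1.94. Leaving out tumour 1 left 4 calls, those of Ly96, Pycard, Relb and Nfkbia. Leaving out tumour 3 left 3, those of Tlr3, Tlr4 and Ifih1. All 10 calls held without tumour 2. The split by tumour differed between scalings: as deposited 3 calls were highest in tumour 1 and 6 in tumour 3. With each tumour scaled to a total of 1000000 these counts were 6 and 6. They were 8 and 5 when loci under 300 bp were also left out, and 6 and 4 with median-of-ratios scaling. Scaling to that total also raised every level, so more genes reached the mean of 1 FPKM needed for the test. The shares of all symbols under these scalings, or with a tumour left out, are not given here. These counts therefore do not set the members apart from other genes.

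GC content moved with these differences. Over the 30 members the log2 difference of tumour 3 minus tumour 1 had a Pearson correlation of 0.76 with the GC content of the transcripts, and of 0.66 over 10923 symbols averaging 1 FPKM or more. These are correlations across genes of the same 2 libraries, and genes are not independent replicates. Of 14 members with a GC content under 50%, 8 were lower in tumour 3 than in tumour 1, among them Tlr4 (40.3% GC), Tlr3 (42.3%) and Ifih1 (44.3%). None of the 16 members with a GC content of at least 50% was lower in tumour 3. Once the trends were removed, the correlation was 0.12 over the members and -0.04 over all symbols, and 8 of these 16 were lower. Removing a fitted trend with GC content lowers this correlation by construction. Of 30 members, 7 were called with the trends removed, 23.3% beside 17% of all 11013 symbols tested.

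Tlr3 and Ifih1 were still called with their highest value in tumour 1, with ratios of 2.49 and 3.66 (8.72% of all symbols had that pattern). Ly96 was called in tumour 2 (2.33; 1.87% of all symbols). The members called highest in tumour 3 were Pycard (2.96), Rel (2.76), Nfkbia (2.28) and Tlr1 (2.05), 13.3% of those tested where 6.44% of all symbols were. Rel and Tlr1 gained a call, whereas Tlr4, Nfkb2, Relb, Nfkbie and Tnfaip3 lost theirs, with ratios of 1.49, 1.33, 1.81, 1.73 and 1.97. Nfkb2 and Tnfaip3 also fell under the required ratio with each of 3 other scalings of the tumours, at 1.63 to 1.84 for Nfkb2 and 1.66 to 1.81 for Tnfaip3. Tlr3, Ifih1, Ly96, Pycard and Nfkbia therefore kept a call and its direction in both versions of the values. How much of the remaining differences follows GC content within the members was not tested.

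**Figure D4:**
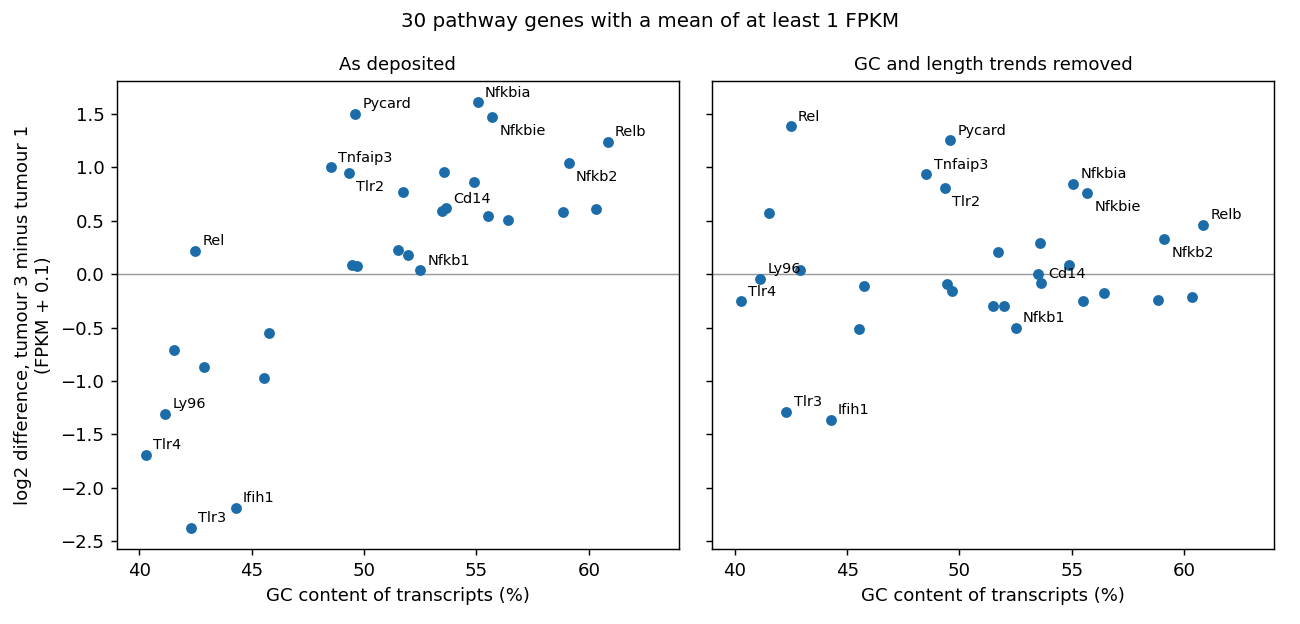
Log2 difference of tumour 3 minus tumour 1 on the log2(FPKM + 0.1) scale against the GC content of transcripts (%) for the 30 members averaging 1 FPKM or more, as deposited on the left and with GC and length trends removed on the right; each point is 1 gene. On the left all 16 members with a GC content of at least 50% lie above 0, and on the right Tlr3 and Ifih1 stay lowest while Pycard lies at 1.25, Nfkbia at 0.85 and Rel at 1.38; Rel is at 0.22 on the left.

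The sum of each immune cell marker list except that of NK cells was highest in tumour 3. Of the 12 macrophage markers, none was at 0, 11 were called between tumours and all of these were highest in tumour 3, where 13.2% of all symbols tested were. Mertk was not called and had its lowest value in tumour 3 (3.08, 3.09 and 2.28 FPKM). The sum of the 12 markers, 277, 509 and 989 FPKM, became 324, 477 and 923 FPKM with the trends removed, when 5 were called. The largest of them, Lyz2, which encodes lysozyme, had 146, 230.3 and 602 FPKM of that sum. The 7 neutrophil markers measured summed to 4.88, 13.5 and 30.2 FPKM, with Elane at 0 in all tumours and 3 markers under 0.1 FPKM in each. Of these sums S100a8 alone had 3.59, 9.15 and 21.6 FPKM. The 6 T cell markers measured summed to 1.94, 4.53 and 9.13 FPKM, and the 7 dendritic cell markers to 2.63, 3.20 and 7.56 FPKM. The 5 B cell markers summed to 0.133, 0.429 and 0.714 FPKM with Pax5 at 0 in all tumours. By limma only 1 T cell marker, 1 dendritic cell marker and 0 B cell markers were above 1 FPKM. The 4 adipocyte markers had a sum of 59.4, 43.6 and 189.8 FPKM. The NK cell list was the only 1 of the 10 lists whose sum was highest in tumour 1 as deposited, at 2.61, 1.15 and 1.77 FPKM, while the 5 endothelial markers summed to 15.3, 23.1 and 23.5 FPKM and the 6 fibroblast markers to 252, 338 and 282 FPKM. The part of these cell types in the levels of the members was not tested.

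The sequence before the start site was examined for the members that were called together in tumour 3, because several of them are textbook NF-kappaB target genes. RefSeq windows on GRCm38.p6, from 250 bases before to 50 bases after a start site, were at hand for 32 of the 41 members in 44 windows. They were missing for Tlr4, Tlr7, Cd14, Ly96, Ticam2, Tmem173, Ikbkb, Nfkb1 and Relb. The 10-letter kappaB consensus, searched by its usual degenerate form on both strands with overlapping matches merged, was found in the windows of 9 of the 32 members (28.1%), against 9.55% of all 27025 genes with a window. By window these are 12 of 44 (27.3%) against 8.46% of 32851. The Irak1 windows overlap and hold the same match, as do some Nfkb2 windows, so this count is no further check. Because several members were known target genes beforehand, the higher share was not used as a test. The 9 were Tlr2, Tlr3, Irak1, Nlrp3, Nfkb2, Rel, Nfkbia, Nfkbie and Tnfaip3. A match of letters is a description and not a site of binding.

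Shown here are the windows of the 4 members that were called as deposited with their highest value in tumour 3 and that hold a match, picked after their values were seen, in lower case with the matches in capitals, read 5′ to 3′ on the strand of the gene. The Pycard window holds none. Only Nfkbia of these 4 kept its call with the trends removed. Rel, which was called highest in tumour 3 only with the trends removed, also holds a match and is not shown. Nfkb2 has 3 annotated starts, of which the first is shown, and Tnfaip3 has 2, of which the one with a match is shown.
Nfkbia, chr12:55492598-55492897, minus strand: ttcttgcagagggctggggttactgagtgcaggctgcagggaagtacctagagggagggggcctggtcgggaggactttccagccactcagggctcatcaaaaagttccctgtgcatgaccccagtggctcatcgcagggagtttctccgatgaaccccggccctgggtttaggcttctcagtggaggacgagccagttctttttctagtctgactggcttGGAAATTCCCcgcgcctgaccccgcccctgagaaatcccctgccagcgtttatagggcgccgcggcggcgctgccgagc
Nfkbie, chr17:45555450-45555749, plus strand: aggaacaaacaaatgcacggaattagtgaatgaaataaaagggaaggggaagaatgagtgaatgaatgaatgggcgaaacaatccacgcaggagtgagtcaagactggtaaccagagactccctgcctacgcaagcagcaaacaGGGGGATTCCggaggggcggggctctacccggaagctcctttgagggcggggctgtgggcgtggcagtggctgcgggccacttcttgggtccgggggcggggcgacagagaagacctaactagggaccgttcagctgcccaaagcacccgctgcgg
Nfkb2, chr19:46304487-46304786, plus strand: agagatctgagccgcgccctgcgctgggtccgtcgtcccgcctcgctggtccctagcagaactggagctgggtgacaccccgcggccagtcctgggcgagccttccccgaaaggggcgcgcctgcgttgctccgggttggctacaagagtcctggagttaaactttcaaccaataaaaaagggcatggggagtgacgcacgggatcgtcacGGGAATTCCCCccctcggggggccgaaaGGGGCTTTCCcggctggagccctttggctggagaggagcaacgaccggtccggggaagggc
Tnfaip3, chr10:19015361-19015660, minus strand: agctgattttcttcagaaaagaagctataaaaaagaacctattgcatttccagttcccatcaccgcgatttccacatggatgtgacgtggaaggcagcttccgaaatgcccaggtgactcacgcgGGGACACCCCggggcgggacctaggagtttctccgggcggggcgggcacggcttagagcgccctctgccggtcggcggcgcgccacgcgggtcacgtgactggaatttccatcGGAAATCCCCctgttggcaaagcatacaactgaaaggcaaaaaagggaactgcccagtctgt
In Nfkbia the match begins 29 bases before the start site, and in Nfkbie 106 bases before it. The Nfkb2 window holds 2 matches, at 39 and 11 bases before the start, and the Tnfaip3 window 2, at 125 and 12 bases before. Members with a match did not share 1 pattern across tumours: Tlr3, which holds GGGAGTTTCC, was highest in tumour 1, whereas Tlr2, which holds GGGGAATTCCC and GGGACATCCC, had its highest value in tumour 3.

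Other genes of the pathway, listed by role, gave a wider view. Of 97 such genes measured, 66 were above 1 FPKM and 17 below by limma, where 54.2% and 32.5% of all symbols tested were. These shares also stand beside the level counts of each list below. Between tumours 35 of 72 tested were called, where 32.5% of all symbols tested were. They were highest in tumour 3 for 19, in tumour 1 for 15 and in tumour 2 for 1. The shares of all symbols called highest in tumours 3, 1 and 2 were 13.2%, 15.7% and 3.64%. With the trends removed 22 were called, where 17% of all symbols were. Among these, Tirap, Irf7 and Csf3 gained a call highest in tumour 1, and Cd36, Cxcl1 and Vcam1 gained one highest in tumour 3. All 7 genes of TLR trafficking and ligand processing were above 1 FPKM. The highest was Ctss, a lysosomal protease that trims endosomal TLRs, at 147, 248 and 317 FPKM. Hsp90b1, which encodes the chaperone gp96 needed to fold most TLRs, ran the other way at 389, 149 and 71.9 FPKM, and both kept their call and order with the trends removed. Lgmn, another lysosomal protease (61.9 ± 24.0 FPKM), Unc93b1, the escort of endosomal TLRs (17.8 ± 6.33 FPKM), and Cnpy3, a TLR folding factor (8.65 ± 4.20 FPKM), were called with their highest value in tumour 3 and lost that call with the trends removed. Lbp, which delivers lipopolysaccharide to CD14, was at 40.0 ± 10.4 FPKM, and the scavenger receptor Cd36 was lowest at 3.36 ± 1.06 FPKM.

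Of 25 genes of signal transduction 19 were above 1 FPKM and 3 below. Ube2v1, Tollip and Tab2 were highest, at 31.1 ± 7.13, 19.1 ± 6.06 and 18.4 ± 11 FPKM, and Sarm1 and Peli3 lowest, at 0.0741 ± 0.0345 and 0.372 ± 0.0931 FPKM. Tab2, Tab3, Map3k7, Traf6, Peli1, Tbk1 and Birc2 were called with their highest value in tumour 1, with ratios between 2.13 for Tbk1 and 4.86 for Tab3. TAB2, TAB3 and the kinase encoded by Map3k7, TAK1, act in 1 complex downstream of TRAF6, and of these only Tab2 and Tab3 kept the call with the trends removed. Traf2 (ratio 2.01) and Ikbke (2.40), a kinase related to TBK1, were called highest in tumour 3, Ikbke in both versions. Of the 5 interferon regulatory factors, all above 1 FPKM, Irf7 (25.1 ± 8.01 FPKM), Irf1 (23.1 ± 7.95) and Irf3 (9.94 ± 2.60) led, with Irf8 (4.60 ± 2.21) and Irf5 (3.02 ± 1.26) lowest. Irf5 and Irf8, factors of the myeloid lineage, were called highest in tumour 3 with ratios of 2.43 and 3.00, and no longer with the trends removed.

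Among 14 further negative regulators 9 were above 1 FPKM and 3 below. Fam105b, which encodes the deubiquitinase OTULIN, Tnip2 and Nfkbiz were highest, at 9.28 ± 2.70, 9.06 ± 1.64 and 7.07 ± 1.23 FPKM. Tnip3 and Zc3h12a were lowest, at 0.0984 ± 0.0622 and 0.443 ± 0.0986 FPKM. The phosphatase gene Dusp1 had 0.840, 1.28 and 5.30 FPKM and was called highest in tumour 3 in both versions, while Tnip1 (ratio 2.57, tumour 3), Cyld (2.20, tumour 1) and Trim30a (2.43, tumour 1) were called as deposited only. Of 13 inflammasome genes 5 were above 1 FPKM and 4 below. Casp1, the inflammasome protease, had 45.1, 29.2 and 11.5 FPKM, highest in tumour 1, and lost its call with the trends removed (ratio 1.85 in place of 3.92). Il1b, its cytokine substrate, had 3.05, 9.42 and 13.5 FPKM, lowest in tumour 1, and kept its call (ratio 5.23 in place of 4.43). Casp4 (ratio 5.23) and Nek7 (2.31; 10.5 ± 4.06 FPKM) were highest in tumour 1 and Gsdmd (2.25) in tumour 3, of which Casp4 alone kept the call. Nlrp12 was at 0.0542 ± 0.0392 FPKM and Nlrp6 was listed at 0 in all tumours.

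Of 11 further genes of cytosolic nucleic acid sensing 9 were above 1 FPKM and 1 below. Ddx3x, an RNA helicase, led at 108, 42.5 and 35.0 FPKM and was called as deposited only. Ifi35 (24.4 ± 9.16 FPKM) and Zbp1, a sensor of Z-form nucleic acid (19.4 ± 7.54 FPKM; ratio 2.02, highest in tumour 3 and called as deposited only), came next. Lrrfip1 was highest in tumour 1 in both versions, with ratios of 3.41 and 4.70. E330016A19Rik, the older symbol of the gene for the DNA sensor cGAS, was at 0.957, 0.344 and 0.618 FPKM and Tbkbp1 was lowest, at 0.278 ± 0.163 FPKM.

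Known transcriptional targets of NF-kappaB were split in level, with 12 of 22 above 1 FPKM and 6 below, where 54.2% and 32.5% of all symbols tested were. Lcn2, which encodes the siderophore-binding lipocalin 2, had 2154, 3028 and 2402 FPKM, followed by Sod2 (21.0 ± 4.07 FPKM) and Bcl2l1 (18.2 ± 4.92 FPKM). With the trends removed Lcn2 had 2879, 2795 and 1951 FPKM, with its lowest value in tumour 3. Il6 and Csf2 were lowest, with Il6 listed at 0.0769 FPKM in tumour 1 and at 0 in the others. Of 13 targets tested between tumours 7 were called, where 32.5% of all symbols tested were. Of the 7, 6 were highest in tumour 3, a pattern called in 13.2% of all symbols tested. Saa3, an acute phase protein gene, had 2.90, 2.26 and 18.5 FPKM, with tumour 3 alone high. The chemokine genes Cxcl10 (1.22, 1.11 and 5.45 FPKM), Ccl2 (2.76, 3.10 and 10.0 FPKM) and Ccl5 (1.35, 1.61 and 5.99 FPKM) had the same shape. Icam1, an adhesion molecule gene, had 1.32, 2.51 and 6.05 FPKM, and Bcl2a1a, a survival gene with near-identical copies, had 3.43, 5.67 and 8.52 FPKM. Ninj1 was the exception, lowest in tumour 1 and alike in the others at 1.57, 5.36 and 5.22 FPKM. All 7 kept their call with the trends removed, when 10 of the targets were called, 8 of them highest in tumour 3. The shares of all symbols were then 17% called and 6.44% called highest in tumour 3. Csf3 was then called with its highest value in tumour 1. Several of these target genes are also transcribed by macrophages, of whose 12 markers 11 were called highest in tumour 3 as deposited. The part of those cells was not tested.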

How the data were processed

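Total RNA was sequenced from 3 NDL(UCD) tumours, numbered in accession order because their titles carry other numbers of unstated meaning. Per the file headers, the authors deposited 1 FPKM for each gene, together with interval bounds and a status. TopHat, Cufflinks and mm9 are named in the submitters' processing notes without roles, while no source used here gives versions, annotation or strand setting. Each file holds 22310 rows, and rows sharing 1 of 221 repeated symbols were summed. The members and all lists were chosen with earlier results of these data known.

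Levels were tested with limma 3.58.1 (R 4.3.3; trend and robust moderation) on log2((FPKM + 0.1)/1.1) over 18028 symbols above 0 in at least 1 tumour and with status OK in all 3. Tumours were compared with Cochran's Q (2 degrees of freedom), with the half-width of each interval taken as 2 standard errors, for symbols averaging 1 FPKM or more with no value of 0; calls needed an adjusted p under 0.05 and a ratio of at least 2. P-values were adjusted by Benjamini-Hochberg over all symbols. Implied fragments, FPKM divided by its standard error and squared, cover counting error only. Log2 contrasts used a pseudocount of 0.1, which understates changes of low genes. The level p-values measure the spread between tumours of separate mice that carry 1 line.

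GC content and length came from GENCODE vM21 transcripts by gene name (98.2% of symbols matched), and their trends were removed per tumour by lowess with a span of 0.3 around each gene's mean, which assumes that no biology follows GC content. Every member is described. Of each further pathway list the 3 highest, the 2 lowest and each gene called between tumours in either version of the values are named. Rab7b, Ly6g and Trac were not analysed here. Both tests were also run on simulated data, with the outcome not given here. Apart from genes raised on purpose, the simulation for Cochran's Q held counting error only and no GC trend. It therefore cannot show the rate of false calls in these tumours. Alternatives covered pseudocounts, filters, levels, ratios, scalings, repeated symbols, status and leaving out each tumour.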

Additional observations from a re-analysis of the deposited data

How the results depend on the processing

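No paired analysis was possible because the samples form 1 group. Against 2 FPKM, 15 members were above and 11 below, and against 0.5 FPKM 1 was below; 1 was below with a total of 1000000, with or without loci under 300 bp. These rescalings raised the median symbol by 1.46 log2 units (2.02 without those loci), so levels are relative to the deposited scale. Further genes of the pathway below the mark, 17 as reported, numbered 8 against 0.5 FPKM, 11 with a mean of at least 0.1 FPKM, 7 with the total of 1000000 and 6 without short loci. A ratio of at least 1.5 called 24 members between tumours and a ratio of at least 3 called 5. Leaving out a tumour gave 3 to 10. The median ratio of highest to lowest was 1.90 for the members tested and 1.74 for all symbols tested. The shares of all symbols at the settings of this paragraph are not given here, so its counts do not set the members apart from other genes.

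Level signs turned as follows, in log2 units. Against 2 FPKM, Tlr6 was at -0.13, Tlr13 at -0.38, Irak3 at -0.68, Nod1 at -0.22, Pycard at -0.060, Rel at -0.26, Relb at -0.21 and Tnfaip3 at -0.098. Against 0.5 FPKM, Tlr1 was at 0.86, Tlr7 at 0.59, Tlr8 at 0.86, Tlr12 at 0.15 and Nlrp3 at 0.026. With the total of 1000000, Tlr1 and Tlr8 were at 1.40, Tlr7 at 1.11, Tlr9 at 0.14, Tlr12 at 0.62 and Nlrp3 at 0.44. Without short loci as well, Tlr1 and Tlr8 were at 1.95, Tlr5 at 0.15, Tlr7 at 1.65, Tlr9 at 0.67, Tlr12 at 1.16, Ticam2 at 0.21, Nod2 at 0.25 and Nlrp3 at 0.96. Tlr8 was at 0.0048 with a pseudocount of 1. Leaving out a tumour gave -0.14 to 0.065 for Tlr1 and -0.30 to 0.13 for Tlr8, -0.50 to 0.82 for Tlr2 minus Tlr4, -0.82 to 0.12 for Ly96 minus Tlr4, -0.72 to 0.93 for Ikbkg minus Chuk and -1.14 to 0.46 for Chuk minus Ikbkb. The other contrasts kept their direction under all alternatives run. With the trends removed Tlr13 and Relb gained a call above 1 FPKM, Tlr12 gained one below and Rel lost its own. Another level or total moves these values by construction, and the cause of the other changes was not tested. Depth limits Tlr5, Tlr9, Tlr11, Ticam2, Nod2 and Ly96 most, each with 41 implied fragments or fewer in at least 2 tumours.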
